A study of Mus musculus with 10 samples.

Results

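The genes described here are 40 genes of sugar breakdown and of the response to low oxygen, chosen by gene symbol: glycolytic enzymes, the carriers that move glucose and lactate through the cell membrane, 3 regulators of flux, and genes induced by the hypoxia-inducible factors (HIFs). All 40 were among the 25277 genes counted in 10 RNA sequencing libraries of mouse lung cells. Of them, 37 had enough counts to be tested, among 13464 genes tested in all. Eno2, Egln3 and Car9 were too low.

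Glycolysis splits glucose into pyruvate, which lactate dehydrogenase can turn into lactate, and it yields ATP without oxygen. When oxygen is scarce, the prolyl hydroxylases that mark HIF alpha subunits for destruction slow down, and HIF then binds a short core sequence, ACGTG or GCGTG, near its target genes. Its targets include most glycolytic enzymes, the glucose transporter Slc2a1 and the lactate exporter Slc16a3, as well as genes of mitophagy, collagen modification and blood vessel tone. Transformed cells often run glycolysis at a high rate with oxygen present.

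The libraries came from lungs with 3 genotypes of APE1, a base excision repair enzyme that cuts DNA at sites without a base, encoded by Apex1. Flox/flox, with loxP sites on both alleles, had 3 libraries. Flox/N211A, with 1 loxP allele and 1 allele of the N211A mutant, had 3, and flox/+, with 1 loxP allele and 1 wild-type allele, had 4. All of them were taken 12 wk after infection with an adenovirus that carries the Cre recombinase, so the flox/+ libraries also carried a Cre-treated loxP allele. Each library was made from about 500 cells that the labels call premalignant, by a modified SMART-Seq2 protocol, which amplifies full-length cDNA by PCR. The sources used here give neither the oncogene, the promoter that drives Cre, the way the cells were isolated nor the age of the animals. Nothing in the labels says that the replicates were separate animals, so the tests measure the spread between these libraries, which may be in part technical.

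Total counts ran from 10672334 to 53678659 in flox/flox, from 8955368 to 17070817 in flox/N211A and from 13221853 to 17707731 in flox/+. The highest total was that of flox/flox replicate 3. Its TMM factor, which scales the total, was the lowest of all libraries at 0.751, which raises its scaled values. Markers of alveolar type II and club cells had counts in every library, and those of fibroblasts and endothelium summed to at most 127 and 120 CPM, a gene's counts scaled to the size of its library. Leukocyte markers summed to at most 40.6 CPM. Erythroid markers varied widely, from 0.841 CPM in flox/N211A replicate 3 to 3016 CPM in flox/+ replicate 1. They also reached 2948 CPM in flox/flox replicate 2 and 2793 CPM in flox/N211A replicate 2. Flox/flox replicates 2 and 3 stood apart: their ciliated cell markers summed to 6479 and 6224 CPM, against 1971 in flox/flox replicate 1, 1193 to 1583 in flox/N211A and 557 to 2999 in flox/+. Of the genes tested, 34.2% had 0 counts in flox/flox replicate 2. Y-linked counts exceeded those of Xist in flox/flox replicate 2 and in flox/+ replicates 2 and 4, while Xist was the higher in all 3 flox/N211A libraries. Apex1 stood at 6.02, 0 and 0.573 CPM in flox/flox, at 7.86, 12.9 and 6.45 CPM in flox/N211A and at 4.12, 15.9, 35.9 and 54.1 CPM in flox/+. Which exons Cre cuts out is unknown here, so these counts over the whole gene do not check the deletion.

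Promoters of the enzymes that the comparisons turn on are shown first, because the study's title names G-quadruplexes, 4-stranded structures of G-rich DNA, and because HIF acts through its core sequence. RefSeq transcript starts on GRCm38.p6 were found for 36 of the 40 genes, with 50 promoter windows of 250 bases upstream of a start. The hypoxia core ACGTG or GCGTG, read on both strands, was present in 39 of the 50 windows (78.0%), against 44.0% of the windows of protein-coding genes and 38.6% of all windows. A pattern of 4 runs of at least 3 G on 1 strand, 1 to 7 bases apart, was present in 16 windows (32.0%), against 19.8% and 16.7%. The 50 windows were also richer in G and C, with a median of 62.2% against 55.6% and 52.4%, and several belong to the same gene. Many of the genes were chosen as HIF targets, so the higher share of the hypoxia core is no independent result. These are matches of letters and say nothing of binding or folding in these cells.

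Eno1, the main enolase, has on chromosome 4 a window (chr4:150236458-150236707, plus strand) that ends in runs of C, which are runs of G on the other strand. They are set in capitals as the G-quadruplex pattern, in which the middle run is long enough to count as 2. The window also holds 1 hypoxia core, GCGTG, 230 bases before the start, which is left in lower case.
Eno1: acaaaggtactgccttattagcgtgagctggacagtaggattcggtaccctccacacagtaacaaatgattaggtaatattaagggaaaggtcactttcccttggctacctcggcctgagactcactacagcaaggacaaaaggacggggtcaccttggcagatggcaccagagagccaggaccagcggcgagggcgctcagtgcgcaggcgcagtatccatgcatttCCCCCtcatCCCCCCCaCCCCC
Pgk1, phosphoglycerate kinase, lies on chromosome X (chrX:106186850-106187099, plus strand). Ldha, the lactate dehydrogenase subunit that favours lactate, lies on chromosome 7 (chr7:46845554-46845803, plus strand). Gapdh lies on chromosome 6 (chr6:125165774-125166023, minus strand). The capitals in the 3 sequences that follow mark the hypoxia core on either strand. In Ldha each CACGTG holds 2 overlapping matches, 1 on each strand.
Pgk1: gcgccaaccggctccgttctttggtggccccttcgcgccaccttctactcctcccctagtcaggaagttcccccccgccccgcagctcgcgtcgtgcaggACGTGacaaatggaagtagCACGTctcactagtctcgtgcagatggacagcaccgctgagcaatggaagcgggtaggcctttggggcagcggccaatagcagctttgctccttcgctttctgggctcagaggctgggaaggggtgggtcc
Ldha: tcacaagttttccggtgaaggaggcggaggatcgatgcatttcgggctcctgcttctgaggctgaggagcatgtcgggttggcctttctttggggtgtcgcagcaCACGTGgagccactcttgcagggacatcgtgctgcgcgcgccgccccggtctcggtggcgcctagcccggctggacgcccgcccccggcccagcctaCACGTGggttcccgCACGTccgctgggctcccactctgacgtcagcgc
Gapdh: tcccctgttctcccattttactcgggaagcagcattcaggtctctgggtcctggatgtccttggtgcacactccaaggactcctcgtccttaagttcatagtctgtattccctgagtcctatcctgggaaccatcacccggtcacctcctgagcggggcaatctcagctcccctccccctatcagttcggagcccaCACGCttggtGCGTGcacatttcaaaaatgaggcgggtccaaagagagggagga

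The level of a gene was set against that of another as CPM per kb of exon, averaged over the 10 libraries. The highest were Ldhb, the lactate dehydrogenase subunit that favours pyruvate, at 243 CPM per kb, Aldoa, the main aldolase, at 226, Ldha at 219 and Mif, a cytokine and HIF target, at 128. Next came Tpi1, triosephosphate isomerase, at 70.1 and Higd1a, a mitochondrial protein induced by hypoxia, at 61.5. In several families 1 member carried most of the level per kb. Hk2 held 58.5% to 100% of the hexokinase pair Hk1 and Hk2, Aldoa 96.5% to 100% of the aldolases Aldoa and Aldoc, and Slc2a1 68.2% to 100% of the glucose transporters Slc2a1 and Slc2a3. Ldha held 32.2% to 63.0% of the lactate dehydrogenase pair, and the genotypes overlapped. At the low end stood Eno2, the neuronal enolase, at 0.0297 CPM per kb and Car9, carbonic anhydrase IX and a classical hypoxia marker, at 0.217. Car9 had 0 counts in 7 of the 10 libraries and reached 4.00 CPM in flox/+ replicate 4.

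**Figure D1:**
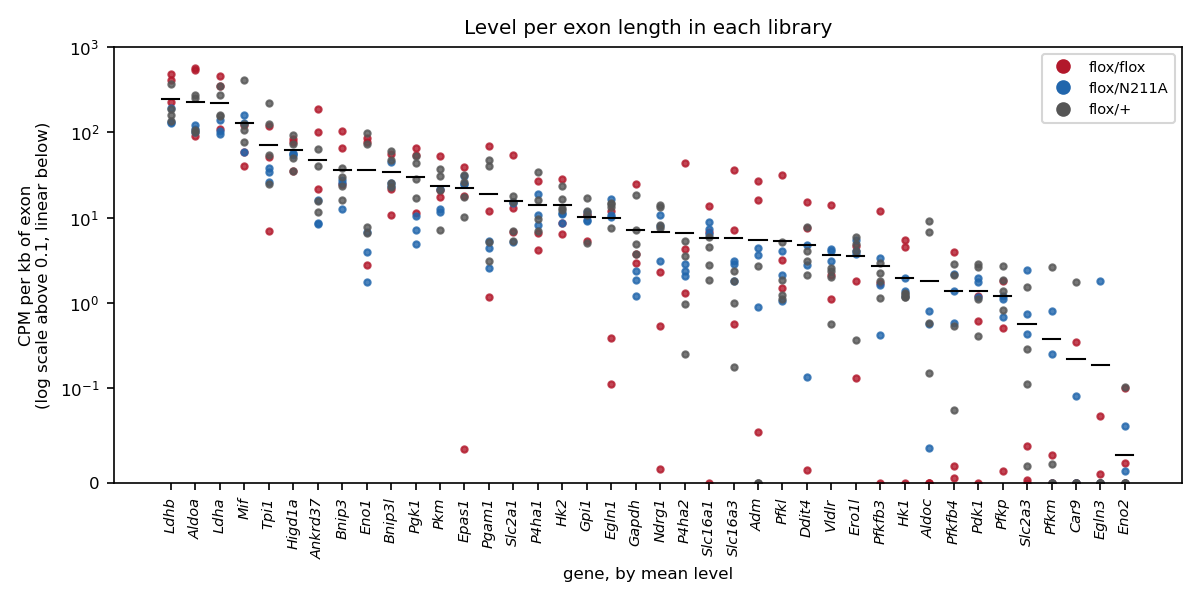
Level of the 40 genes in CPM per kb of exon (vertical axis, logarithmic above 0.1), ordered by the mean over 10 libraries (black bars), with 1 point per library coloured by genotype. Ldhb, Aldoa and Ldha led with means of 243, 226 and 219, and the points of many genes spread over more than 1 decade.

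Libraries of 1 genotype differed widely. Of the 40 genes, 29 had counts in every library and 11 had 0 counts in at least 1. Higd1a was the steadiest, with a 2.70-fold range over the 10 libraries, followed by Gpi1, glucose-6-phosphate isomerase, at 3.38-fold. Among lower glycolysis enzymes Pgam1, phosphoglycerate mutase, ranged 58.0-fold and Eno1 56.3-fold. The widest ranges among genes with counts in every library were 1097-fold for Epas1, 1075-fold for Ddit4, an inhibitor of mTOR signalling, and 930-fold for Ndrg1, each lowest in flox/flox replicate 3. In that library they had 8, 1 and 4 counts, so these folds rest on few reads. The 40 genes summed to 2280, 5612 and 7480 CPM in flox/flox, to 2077, 2446 and 2321 CPM in flox/N211A and to 2773, 2617, 4690 and 4961 CPM in flox/+. Flox/flox replicates 2 and 3 and flox/+ replicates 3 and 4 were thus the high libraries, and no flox/N211A library was among them.

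**Figure D2:**
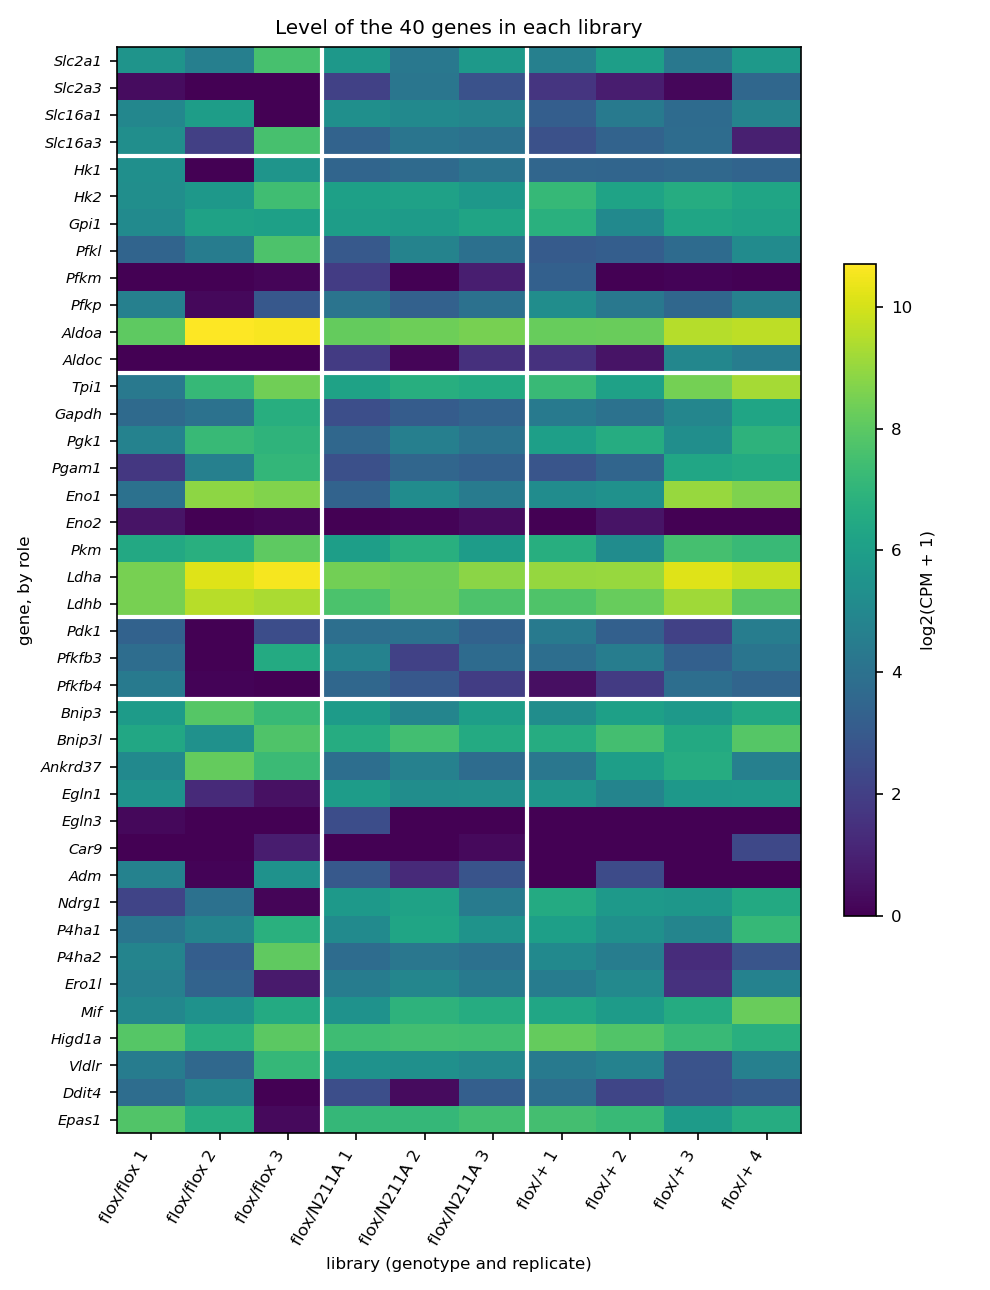
Level of the 40 genes as log2(CPM + 1) (colour) in each of the 10 libraries (columns, by genotype and replicate), with genes in rows by role: transporters, upper glycolysis, lower glycolysis with lactate dehydrogenase, regulators of flux, and HIF genes. Aldoa, Eno1 and Ldha were brightest in flox/flox 2 and 3 and in flox/+ 3 and 4.

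The first comparison asks whether cells with the N211A allele in place of a wild-type allele differ in these genes. In flox/N211A the enzymes of lower glycolysis stood below flox/+, with Eno1 lowest relative to it, while the 4 lactate and glucose carriers averaged above it and the HIF genes lay on both sides. No gene passed the adjusted test: edgeR's quasi-likelihood test with Benjamini-Hochberg adjustment over 13464 genes called 0. DESeq2 called 0 of the 37 genes tested, against 0.119% of all genes. At an unadjusted p under 0.05, 2 of the 37 genes tested were lower and 0 higher, against 1.43% of all genes (0.706% lower and 0.728% higher). They were Pgk1 and Eno1. The count was 6 without flox/+ replicate 1 (1.84% of all genes in that fit) or flox/flox replicate 3 (3.05%), and 7 without flox/+ replicate 2 (2.56%) or flox/flox replicate 1 (3.14%), whose spread enters the fit. Of the 37 log2 fold changes 11 were above 0, against 47.7% of all genes, with a median of -0.31 against -0.04 over all genes. With counts scaled by plain totals the medians were -0.26 and 0.05.

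Of the 8 lower glycolysis and lactate dehydrogenase genes tested, 8 had a log2 fold change below 0, with a median of -1.98. This count was 8 under each scaling, each other alternative and each library left out. With no filter on low counts Eno2 made the count 9 of 9. Flox/+ replicates 3 and 4, the high libraries for several of these genes, were never left out together. Rank correlations with Eno1 over the 10 libraries were taken for Tpi1, Gapdh, Pgk1, Pgam1, Pkm, Ldha and, from upper glycolysis, Aldoa. They ran from 0.673 for Pkm to 0.867 for Pgam1 and include the difference between genotypes. Ldhb was not compared. The 8 genes are thus not to be counted as 8 independent results. The grouping by role was made after the data were seen.

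Pgk1, which forms ATP from bisphosphoglycerate, stood at 11.03, 23.4 and 15.9 CPM in flox/N211A, against 64.3, 97.9, 37.8 and 118 CPM in flox/+. Every flox/N211A library was below every flox/+ library, with a log2 fold change of -2.25 (SE 0.74, edgeR adjusted p = 1.00). Eno1, which makes phosphoenolpyruvate, stood at 9.49, 36.0 and 21.1 CPM in flox/N211A, against 35.6, 41.2, 534 and 389.6 CPM in flox/+. The groups met only at the top of flox/N211A, and flox/+ fell into a low and a high pair of libraries. Eno1 averaged 22.2 ± 13.3 CPM in flox/N211A and 250.1 ± 252 CPM in flox/+ (SD, n = 3 and 4), with a log2 fold change of -3.49 (SE 1.12, edgeR adjusted p = 1.00). With no filter on low counts Eno1 passed with an adjusted p of 8.27e-04, among 13 of 20349 genes (0.0639%). Its adjusted p under all alternatives ran from that value to 1.00.

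Gapdh, glyceraldehyde-3-phosphate dehydrogenase, stood at 4.97, 7.61 and 9.67 CPM in flox/N211A, against 20.1, 15.4, 29.3 and 76.5 CPM in flox/+, without overlap (log2 fold change -2.25, SE 1.08). Ldha stood at 339.5, 315 and 456 CPM in flox/N211A, against 508, 529.5, 1165 and 895 CPM in flox/+, again without overlap (log2 fold change -1.07, SE 0.51). For both the edgeR adjusted p was 1.00. Hk2, the hexokinase induced by HIF, was the only upper glycolysis gene without overlap. It stood at 66.6, 68.2 and 51.6 CPM in flox/N211A, against 141, 72.9, 98.9 and 78.0 CPM in flox/+ (log2 fold change -0.65, SE 0.61, edgeR adjusted p = 1.00), and without flox/+ replicate 1 its log2 fold change was -0.42. In all, 4 of 37 genes were lower without overlap, against 2.64% of all genes, and 2 were higher, against 3.51%.

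The other enzymes of lower glycolysis overlapped between the groups. Pgam1 stood at 5.06, 10.7 and 8.69 CPM in flox/N211A, against 6.14, 10.3, 79.9 and 93.3 CPM in flox/+. Tpi1 stood at 71.7, 104 and 93.0 CPM in flox/N211A, against 149, 68.6, 349 and 604 CPM in flox/+. In both, flox/+ replicates 3 and 4 were the high libraries, as they were for Aldoa, Eno1 and Pkm, the pyruvate kinase. Ldhb stood at 204, 303 and 208 CPM in flox/N211A, against 212, 296, 575 and 249 CPM in flox/+, where replicate 3 was high. Ldhb, Aldoa and Pkm had log2 fold changes of -0.48, -0.73 and -0.64, with SEs of 0.47, 0.58 and 0.61. Ldhb stood at -0.08 without flox/+ replicate 3 and Aldoa at -0.46 without replicate 4.

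The same 4 libraries that were high in Eno1 had the highest summed level of the 6 alveolar type I markers. That sum was 492, 1369 and 980.3 CPM in flox/flox, 422 to 630.2 CPM in flox/N211A and 615, 353, 1344 and 1483 CPM in flox/+. The markers Ager, Hopx, Aqp5 and Rtkn2 had counts in every library, and Pdpn and Cav1 were at 0 in 1 library each. Alveolar type II markers summed to 55076 to 63430 CPM in flox/N211A, against 55962 to 207530 CPM in flox/+, and club markers to 117690 to 253080 CPM in flox/N211A, against 31057 to 161620 CPM in flox/+. The part of any of these cells in the enzyme levels was not tested. In these bulk libraries fewer cells of a type and less RNA per cell cannot be told apart.

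All 3 flox/N211A libraries had Xist above the Y-linked genes. With only the libraries of that class, flox/+ replicates 1 and 3 among them, the log2 fold changes were -3.66 for Eno1, -1.58 for Pgk1, -1.71 for Gapdh and -1.15 for Ldha, and 8 of 8 were again below 0. Several of these genes have near-identical pseudogenes in GENCODE M21, at 90% identity or more over at least 300 bases: 168 for Gapdh, 12 for Ldha, 8 for Pkm, 5 for Eno1 and 4 for Pgk1. How reads that match several places were counted is not stated in the labels. Eno1 also has the copy Eno1b, which had 6634 counts over all libraries, against 39290 for Eno1. For Gapdh, 8 counted genes with a near-identical transcript, Peli2 among them, had 2023 counts, against 7132 for Gapdh. The counts of both enzymes are thus uncertain.

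**Figure D3:**
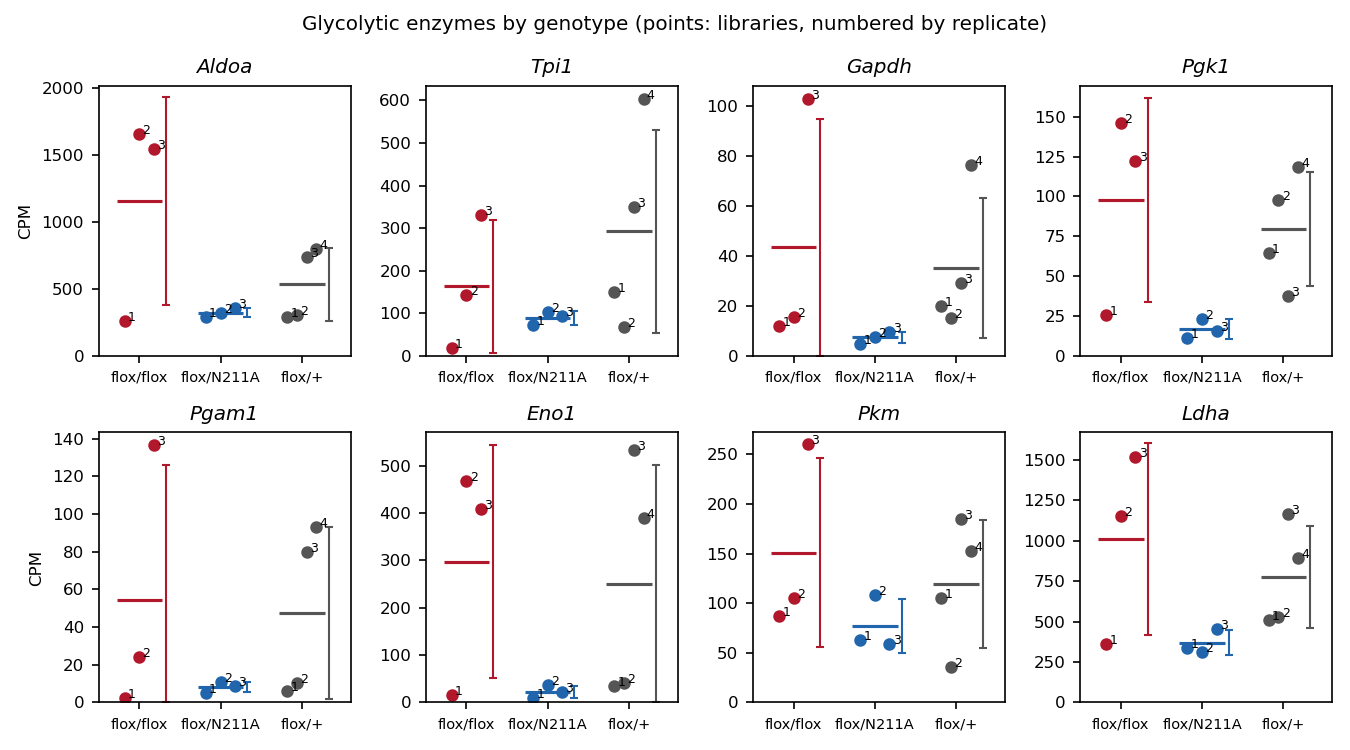
CPM (vertical axes, each from 0) of 8 glycolytic enzymes in flox/flox, flox/N211A and flox/+, with 1 point per library numbered by replicate, the mean as a line and the SD as an error bar drawn no lower than 0. For Eno1 the flox/N211A points lie between 9.49 and 36.0, beside 15.1 to 467 in flox/flox and 35.6 to 534 in flox/+, and the high points are flox/flox 2 and 3 and flox/+ 3 and 4.

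The carriers were higher or level in flox/N211A. Slc16a1, the lactate and pyruvate carrier MCT1, stood at 39.6, 32.5 and 28.2 CPM in flox/N211A, against 8.16, 19.9, 12.4 and 26.2 CPM in flox/+. The groups did not overlap, with a log2 fold change of 1.00 (SE 1.38, edgeR adjusted p = 1.00). All 4 carriers had log2 fold changes above 0, from 0.05 for Slc2a1 to 1.31 for Slc2a3, each smaller than 1 SE. In upper glycolysis 2 of 8 genes were above 0, with a median of -0.69. Pfkl, the liver form of phosphofructokinase, was with Egln1 1 of the 2 genes of smallest difference among those averaging at least 10 CPM. It stood at 6.96, 26.7 and 14.3 CPM in flox/N211A, against 7.49, 8.15, 12.5 and 34.8 CPM in flox/+ (log2 fold change 0.02, SE 1.05). The 3 regulators Pdk1, which holds pyruvate back from the mitochondrion, and Pfkfb3 and Pfkfb4, which set the activator of phosphofructokinase, were each below 0, the lowest Pfkfb3 at -0.17 (SE 1.49).

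Among the 14 HIF genes tested, 5 were above 0 and 9 below, with a median of -0.24. Vldlr, a lipoprotein receptor induced by HIF, stood at 43.4, 40.5 and 31.4 CPM in flox/N211A, against 19.99, 26.1, 5.63 and 24.1 CPM in flox/+. It did not overlap (log2 fold change 1.02, SE 0.93, edgeR adjusted p = 1.00). Egln1, the main HIF prolyl hydroxylase, averaged 44.8 ± 12.7 CPM in flox/N211A, with 59.5, 36.5 and 38.5 CPM, and 44.8 ± 11.9 CPM in flox/+, with 47.4, 27.3, 51.7 and 52.7 CPM (SD). Its log2 fold change was 0.00 (SE 1.14). Mif stood at 43.4, 118 and 96.5 CPM in flox/N211A, against 80.2, 57.4, 94.0 and 303 CPM in flox/+, with a log2 fold change of -0.64 (SE 0.68). Its high value was flox/+ replicate 4, and without that library the value was 0.16. Ankrd37, a HIF target with ankyrin repeats, had the lowest log2 fold change of the 14, at -1.56 (SE 0.80), and Adm, the vasodilator adrenomedullin, the highest at 2.11 (SE 2.16). Epas1, an oxygen-regulated HIF alpha subunit prominent in lung, was at 0.33 (SE 1.04).

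**Figure D4:**
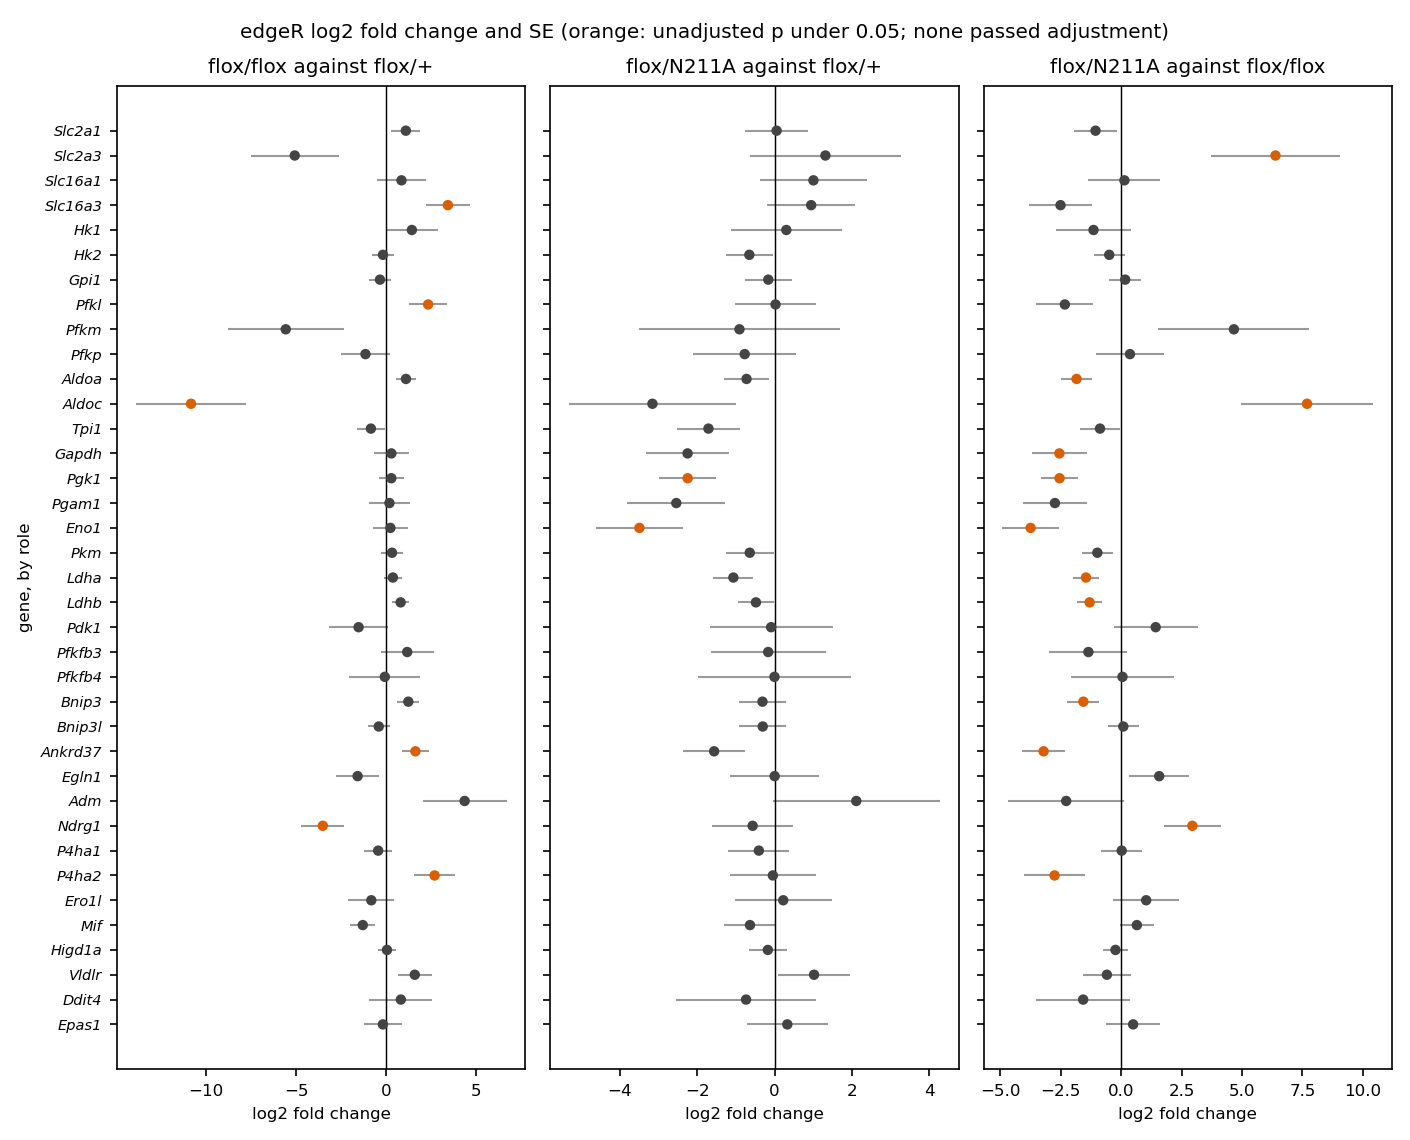
edgeR log2 fold changes (horizontal axes, which differ in range) of the 37 genes tested, with SE bars, in the 3 comparisons, orange where the unadjusted p was under 0.05. In flox/N211A against flox/+ the 8 genes from Tpi1 to Ldhb all lie left of 0 with Eno1 at -3.49. The value of Aldoc in the comparisons with flox/flox, where it had 0 counts, is no bound.

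The second comparison sets cells with loxP sites on both APE1 alleles against flox/+. In flox/flox the group as a whole did not lie to 1 side, and the values were led by single libraries. The carrier Slc16a3, Pfkl, Ankrd37 and P4ha2 averaged higher, and Aldoc and Ndrg1 lower. edgeR called 0 of 13464 genes after adjustment. At an unadjusted p under 0.05, 4 of the 37 genes were higher and 2 lower, 6 in all, which is 16.2% against 14.4% of all genes (5.73% higher and 8.7% lower). Of the 2 lower genes, Aldoc passed the filter on low counts only through the genotypes where it is higher. Without flox/flox replicate 1 the count was 12, against 22.9% of all genes in that fit, and without replicate 3 it was 3, against 12%. Of the 37, 21 were above 0, against 51.3% of all genes, with a median of 0.25 against 0.06 over all genes. Under DESeq2's size factors in edgeR 18 were above 0 and the medians were -0.01 and -0.06. With plain totals they were -0.00 and -0.07. DESeq2 called 4 of the 37 genes tested with an adjusted p under 0.05, against 7.62% of all genes. Among them were Aldoc and Slc2a3, which both passed the filter only where they are higher. The 10 alveolar type II markers, all with counts in every library, summed to 28362 to 34818 CPM in flox/flox, against 55962 to 207530 CPM in flox/+, without overlap. The ciliated markers were higher in flox/flox replicates 2 and 3 than in any flox/+ library, and the part of either cell type was not tested.

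Slc16a3, the lactate exporter MCT4, stood at 38.1, 3.03 and 192 CPM in flox/flox, against 5.32, 9.67, 12.6 and 0.944 CPM in flox/+. Flox/flox replicates 1 and 3 were above all flox/+ libraries and replicate 2 was within them. On the log2 scale it stood at 3.45 (SE 1.20, edgeR adjusted p = 0.281), and DESeq2 gave an adjusted p of 0.0424. Without flox/flox replicate 3 its log2 fold change was 1.54, with an edgeR adjusted p of 0.618. Over the alternatives its adjusted p ran from 0.0424 to 0.787. Slc2a3, the neuronal glucose transporter, had 3, 0 and 1 counts in the flox/flox libraries, and stood at 2.096, 0.815, 0.132 and 10.99 CPM in flox/+. It reached the filter on low counts in 0 flox/flox libraries and so passed only through the genotypes where it is higher. DESeq2 gave it an adjusted p of 0.0478, and edgeR gave 0.357.

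In upper glycolysis Pfkl stood at 10.1, 21.2 and 209 CPM in flox/flox, against 7.49, 8.15, 12.5 and 34.8 CPM in flox/+. The groups overlapped but for flox/flox replicate 3 (log2 fold change 2.35, SE 1.06, edgeR adjusted p = 0.327). Without flox/flox replicate 3 it stood at 0.03. With flox/flox replicate 1 alone, a fit in which the spread comes from the other genotypes, it stood at -0.65. Aldoc, the brain form of aldolase, had 0 counts in all flox/flox libraries, against 1.87, 0.489, 30.1 and 21.9 CPM in flox/+. With a floor of 3 counts per library it was at least 66.1-fold lower in flox/flox, or 39.3-fold without the highest flox/+ library. Like Slc2a3 it reached the filter in 0 flox/flox libraries and passed through the other genotypes, so it had to differ. The edgeR adjusted p was 0.237, and DESeq2 gave 3.98e-05. Per kb it made up at most 3.52% of Aldoa and Aldoc together, in flox/+ replicate 3. Aldoa stood at 262, 1661 and 1545 CPM in flox/flox, against 292, 306, 736 and 800.2 CPM in flox/+, so replicates 2 and 3 were above and replicate 1 below every flox/+ library (log2 fold change 1.12, SE 0.57, edgeR adjusted p = 0.376). The isoform shares of phosphofructokinase were uneven as well. Pfkl held 45.6%, 99.6% and 98.3% of the level per kb of Pfkl, Pfkm and Pfkp in flox/flox, against 17.3%, 46.7%, 69.1% and 73.6% in flox/+.

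In lower glycolysis 1 of 8 genes was below 0, Tpi1, with a median of 0.30 over the 8, while 3 were below 0 under both other scalings. The count was 7 without flox/flox replicates 2 and 3. Leaving out 1 library gave 3 for flox/flox replicate 2 or flox/+ replicate 1, 4 for flox/flox replicate 3 and 5 for flox/+ replicate 2. Eno1 stood at 15.1, 467 and 409 CPM in flox/flox, within the range of flox/+ but for replicate 1 below it, with a log2 fold change of 0.25 (SE 0.97). Pgk1 stood at 25.4, 146 and 122 CPM in flox/flox, with replicate 1 below and replicates 2 and 3 above every flox/+ library, and a log2 fold change of 0.30 (SE 0.69). Ldhb was highest relative to flox/+, at 0.82 (SE 0.46). The 3 regulators of flux ran from -1.52 for Pdk1 to 1.18 for Pfkfb3, both within 1 SE of 0.

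The 14 HIF genes split evenly, with 7 above and 7 below 0. Ndrg1, a stress response gene induced by hypoxia, stood at 3.58, 15.1 and 0.0996 CPM in flox/flox, against 92.6, 53.9, 49.3 and 88.8 CPM in flox/+. Every flox/flox library was below every flox/+ library, with a log2 fold change of -3.51 (SE 1.19, edgeR adjusted p = 0.27, DESeq2 0.0177). With flox/flox replicate 1 alone it stood at -4.31, and without replicate 2 at -5.32. Its adjusted p over the alternatives ran from 0.0177 to 0.787. Aldoc and Ndrg1 were the 2 genes lower without overlap, against 7.19% of all genes, Aldoc having passed the filter only where it is higher, and 0 were higher without overlap, against 3.44%.

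Ankrd37 stood at 33.2, 286 and 154 CPM in flox/flox, against 17.9, 62.5, 97.5 and 24.2 CPM in flox/+. P4ha2, a prolyl hydroxylase subunit for collagen, stood at 27.0, 8.06 and 271 CPM in flox/flox, against 32.8, 22.0, 1.59 and 6.11 CPM in flox/+. Both overlapped, with flox/flox replicates 2 and 3 high for Ankrd37 and replicate 3 alone for P4ha2. Their log2 fold changes were 1.64 (SE 0.76) and 2.71 (SE 1.13), with edgeR adjusted p of 0.337 and 0.312. Without flox/flox replicate 3 P4ha2 stood at 0.18, and without replicate 2 Ankrd37 at 0.91. With flox/flox reduced to replicate 1 they stood at -0.61 for Ankrd37 and 0.79 for P4ha2. Egln1 stood at 43.4, 1.39 and 0.398 CPM in flox/flox, with replicates 2 and 3 below every flox/+ library. With flox/flox replicate 1 left out it was the only one of the 40 genes that edgeR called, lower with a log2 fold change of -5.66 and an adjusted p of 0.0256, beside 2.77% of all genes. DESeq2 gave Egln1 no p in any comparison. Mif stood at 29.8, 43.2 and 91.1 CPM in flox/flox, with replicates 1 and 2 below every flox/+ library and a log2 fold change of -1.29 (SE 0.69, edgeR adjusted p = 0.405). Epas1 was likewise uneven, at 219 and 101 CPM in flox/flox replicates 1 and 2 and at 0.199 CPM in replicate 3, against 57.0 to 178 CPM in flox/+. With only the Xist-positive libraries, flox/flox replicates 1 and 3 among them, the log2 fold changes were 3.61 for Slc16a3, 3.37 for Pfkl, -5.30 for Ndrg1, 3.04 for P4ha2 and 0.63 for Ankrd37.

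The third comparison sets the N211A allele beside a loxP allele against 2 loxP alleles. It shares the flox/flox libraries with the comparison above, so the 2 are not independent. In flox/N211A, lower glycolysis, Aldoa, Bnip3, Ankrd37 and P4ha2 averaged lower than in flox/flox, and Ndrg1, Slc2a3 and Aldoc higher. edgeR called 0 genes after adjustment. At an unadjusted p under 0.05, 9 of the 37 genes were lower and 3 higher, 12 in all, which is 32.4% against 12% of all genes (4.42% lower and 7.63% higher). Of the 3 higher genes, Slc2a3 and Aldoc reached the filter in 0 flox/flox libraries and so passed only through genotypes where they are higher. The count was 7 without flox/N211A replicate 1, against 6.68% of all genes in that fit, and 6 without replicate 2, against 8.27%. The median was -0.87 against -0.11 over all genes, with 15 of 37 above 0 against 47.1% of all genes. DESeq2's size factors in edgeR gave medians of -0.60 and 0.03, and plain totals -0.55 and 0.11. DESeq2 called 5 of the 37, against 4.95% of all genes: Eno1, Pgk1 and Ankrd37 lower, and Slc2a3 and Aldoc higher. The same limit holds for the last 2. With flox/flox replicate 1 alone, a fit that takes the spread from the other genotypes, 2 of 39 genes tested had an unadjusted p under 0.05, against 7.93% of all genes. Its median was 0.09, and the differences of Aldoa, Eno1 and Ldha turned sign, while those of Pgk1, Ankrd37 and Ndrg1 kept theirs.

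Of the 8 lower glycolysis genes tested, 8 were below 0, with a median of -1.998, under TMM and both other scalings. Without flox/flox replicates 2 and 3 there were 4, and without replicate 3 alone 7. Pgk1 stood at 11.03, 23.4 and 15.9 CPM in flox/N211A, against 25.4, 146 and 122 CPM in flox/flox. The groups did not overlap, with a log2 fold change of -2.54 (SE 0.78, edgeR adjusted p = 0.386, DESeq2 0.0297). Without flox/flox replicates 2 and 3 it was -0.58, and the adjusted p over the alternatives ran from 0.0297 to 0.801. Eno1 stood at 9.49, 36.0 and 21.1 CPM in flox/N211A, against 15.1, 467 and 409 CPM in flox/flox, with replicate 1 inside the flox/N211A range. It differed by -3.74 on the log2 scale (SE 1.17, edgeR adjusted p = 0.386, DESeq2 0.0239). With no filter on low counts it passed with an adjusted p of 1.5e-04, beside 0.472% of all genes. With flox/flox replicate 1 alone it stood at 0.58. Over the alternatives the adjusted p ran from 1.5e-04 to 0.895.

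Gapdh stood at 4.97, 7.61 and 9.67 CPM in flox/N211A, against 12.0, 15.6 and 103 CPM in flox/flox, without overlap (log2 fold change -2.55, SE 1.13, edgeR adjusted p = 0.399). Without flox/flox replicate 3 the value was -0.92. Ldhb stood at 204, 303 and 208 CPM in flox/N211A, against 360.4, 756 and 645 CPM in flox/flox, without overlap (log2 fold change -1.30, SE 0.50, edgeR adjusted p = 0.386). Ldha stood at 339.5, 315 and 456 CPM in flox/N211A, against 361, 1154 and 1519 CPM in flox/flox. Aldoa stood at 291, 319 and 358 CPM in flox/N211A, against 262, 1661 and 1545 CPM in flox/flox. Flox/flox replicate 1 lay within the flox/N211A range for Ldha and below it for Aldoa. The log2 fold changes were -1.45 (SE 0.55) for Ldha and -1.84 (SE 0.63) for Aldoa, each with an edgeR adjusted p of 0.386. With flox/flox reduced to replicate 1 they stood at 0.05 and 0.31.

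Among the HIF genes Ankrd37 stood at 13.4, 25.0 and 12.9 CPM in flox/N211A, against 33.2, 286 and 154 CPM in flox/flox. It did not overlap, with a log2 fold change of -3.20 (SE 0.89, edgeR adjusted p = 0.386, DESeq2 0.00987). Without flox/flox replicates 2 and 3 it was -0.94. Exons of Ankrd37 overlap exons of Lrp2bp and Ufsp2 on the other strand. With the strand setting unstated, its counts are uncertain in every comparison. Bnip3, a receptor for mitophagy, stood at 57.4, 28.2 and 62.0 CPM in flox/N211A, against 56.8, 232 and 146 CPM in flox/flox. P4ha2 stood at 12.7, 17.9 and 14.7 CPM in flox/N211A, against 27.0, 8.06 and 271 CPM in flox/flox. Both overlapped, flox/flox replicate 1 lying with flox/N211A for Bnip3 and replicate 2 below it for P4ha2, with log2 fold changes of -1.56 (SE 0.66) and -2.75 (SE 1.26). Without flox/flox replicate 3 P4ha2 stood at -0.21. Bnip3l, the paralog of Bnip3, stood at 0.09 (SE 0.64) on the log2 scale. Ndrg1 stood at 52.0, 71.4 and 20.7 CPM in flox/N211A, against 3.58, 15.1 and 0.0996 CPM in flox/flox. It was higher in every flox/N211A library, with a log2 fold change of 2.95 (SE 1.19, edgeR adjusted p = 0.386). Against flox/flox replicate 1 alone it stood at 3.76, and without flox/flox replicate 2 at 4.75.

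Of the 37 genes, 4 were lower without overlap, Gapdh, Pgk1, Ldhb and Ankrd37, against 5.61% of all genes. Ndrg1, Slc2a3 and Aldoc were higher without overlap, against 13% of all genes, and Slc2a3 and Aldoc had passed the filter in 0 flox/flox libraries. Slc2a3 stood at 3.16, 17.6 and 5.40 CPM in flox/N211A, above the 3, 0 and 1 counts of flox/flox (edgeR adjusted p = 0.386, DESeq2 0.0183). Aldoc stood at 2.62, 0.120 and 1.82 CPM in flox/N211A and at 0 in flox/flox, at least 7.40-fold higher, or 4.72-fold without the highest flox/N211A library (edgeR adjusted p = 0.386, DESeq2 0.0221). With flox/flox replicate 1 left out edgeR called 4 of the 37, against 1.69% of all genes: Aldoa, Pgk1 and Ankrd37 lower, and Egln1 higher with a log2 fold change of 5.66. The summed ciliated markers were 1193 to 1583 CPM in flox/N211A, against 1971, 6479 and 6224 CPM in flox/flox, with 6 of 6 markers present in every library. Alveolar type II markers summed to 55076 to 63430 CPM in flox/N211A, against 28362 to 34818 CPM in flox/flox, also without overlap. The part of either cell type in these differences was not tested.

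The wider pathway was read from lists chosen with earlier results of these data known. In flox/N211A against flox/+ the unadjusted p was under 0.05 for 0 of 18 other glycolysis genes, 0 of 13 genes of pyruvate entry into the mitochondrion, 0 of 8 of the pentose phosphate pathway, 0 of 10 HIF regulators and 1 of 25 other HIF targets, against 1.43% of all genes. That target, named after its values were seen, was Lox, the collagen crosslinking enzyme, at 12.7, 2.04 and 0 CPM in flox/N211A and at 0 in all flox/+ libraries. Lox reached the filter on low counts in 0 flox/+ libraries and passed only through the other genotypes, so it had to differ. With the same floor on counts as for Aldoc, it was at least 26.0-fold higher in flox/N211A, or 5.41-fold without the highest flox/N211A library. The 6 fibroblast markers summed to 99.8, 127 and 14.0 CPM in flox/N211A, against 11.2, 5.33, 0 and 35.04 CPM in flox/+, and their part in Lox was not tested. The 5 lists' medians lay between -0.08 and -0.62. Pgd, which makes NADPH, stood at 98.1, 111 and 91.5 CPM in flox/N211A, against 85.3, 88.8, 68.9 and 51.0 CPM in flox/+, and Insig2, a brake on sterol synthesis, at 121, 113 and 101 CPM, against 91.5, 78.3, 87.6 and 31.8 CPM. Neither overlapped, with log2 fold changes of 0.45 (SE 0.71) and 0.63 (SE 0.73). Hif1a, the widely expressed HIF alpha subunit, averaged 84.0 ± 13.5 CPM in flox/N211A and 72.3 ± 12.9 CPM in flox/+ (SD), at 0.22 (SE 0.58).

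In flox/flox against flox/+ the other HIF targets had 7 of 25 above 0, with a median of -0.44 against 0.06 over all genes. At an unadjusted p under 0.05, 4 were lower, against 8.7% of all genes, and 1 higher, against 5.73%, and 5 were lower without overlap, against 7.19%. Bhlhe40, a repressor of the circadian clock, stood at 17.0, 0.433 and 27.3 CPM in flox/flox, against 196, 58.6, 80.3 and 76.2 CPM in flox/+ (log2 fold change -2.78, SE 0.96, edgeR adjusted p = 0.275). Stbd1, a glycogen binding protein, stood at 4.24, 0 and 0.448 CPM in flox/flox, against 53.5, 22.8, 46.3 and 27.9 CPM in flox/+ (log2 fold change -4.60, SE 1.498, edgeR adjusted p = 0.258). Gys1, glycogen synthase, stood at 10.2, 0.0866 and 0.0249 CPM in flox/flox, against 28.1, 37.0, 28.7 and 31.6 CPM in flox/+ (log2 fold change -3.20, SE 1.57, edgeR adjusted p = 0.361). These 3, Nrn1 (-3.85, SE 1.75) and Rbpms (-1.24, SE 0.62) made up the 5 without overlap. The last was named after its values were seen. Of the other lists, G6pc3, a glucose-6-phosphatase, stood at 42.3, 112 and 56.1 CPM in flox/flox, against 8.61, 13.5, 39.7 and 14.3 CPM in flox/+, without overlap (log2 fold change 1.88, SE 0.78). The muscle enolase Eno3 had a mean of 10.6 CPM over the flox/+ libraries, against only 0.125 CPM over those of flox/flox. With so low a mean, every flox/flox library lay under the 0.650 CPM of the filter on low counts. Eno3 could thus pass that filter only through the other genotypes, so it had to differ, as for Aldoc.

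In flox/N211A against flox/flox, which shares the flox/flox libraries, 6 of the 25 other HIF targets were higher without overlap, against 13% of all genes. Among them the log2 fold changes were 2.76 for Bhlhe40, 4.16 for Stbd1, 2.98 for Gys1 and 2.94 for Nrn1. Cited2, which competes with HIF for its coactivator, stood at 88.7, 58.3 and 81.5 CPM in flox/N211A, against 24.4, 52.3 and 5.45 CPM in flox/flox, without overlap (log2 fold change 1.48, SE 0.87). Lower in flox/N211A were Mpc1, a subunit of the mitochondrial pyruvate carrier (-2.16, SE 0.82), Pgls, of the pentose phosphate pathway (-2.15, SE 0.82), and Tkt, transketolase (-2.06, SE 0.90), of which Pgls did not overlap. Bsg, the chaperone of the lactate carriers, stood at 209, 344 and 359.5 CPM in flox/N211A, against 401, 630.1 and 1101 CPM in flox/flox, without overlap (log2 fold change -1.22, SE 0.59, edgeR adjusted p = 0.425). Pdhb, of pyruvate dehydrogenase, averaged 94.3 ± 12.6 CPM in flox/N211A and 201 ± 72.3 CPM in flox/flox (SD, n = 3 each), also without overlap, and Pgd was higher without overlap at 1.02 (SE 0.77).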

How the data were processed

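RNA was measured in 10 libraries. The authors deposited 1 table of raw read counts per gene. Per the submitters' processing notes, Trim Galore 0.5.0, HISAT2 2.1.0, featureCounts 1.6.4, DESeq2 and the genome build mm10 were named. The annotation, strand setting and treatment of reads with several matches are unstated. Genes whose transcripts overlap or are near-identical therefore have uncertain counts. Of the 40 genes, 14 have an exon that overlaps an exon of another gene, 13 of them on the other strand. Ankrd37, Gapdh, Tpi1, Aldoa and Ndrg1 are among them.

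Counts were tested with edgeR 4.0.16 in R 4.3.3: genes kept by filterByExpr, TMM scaling, genotype as the only term, quasi-likelihood test, Benjamini-Hochberg adjustment over 13464 genes and a threshold of 0.05. The SE is the log2 fold change divided by the root of the F statistic. CPM were scaled by TMM totals. DESeq2 1.42.0 and limma 3.58.1 (voom) were alternatives. Near-identical copies were found with blastn 2.17.0. The fits were tested on simulated data. Biological coefficient of variation was 1.24, which limits what 3 or 4 libraries can show, and a floor of 3 counts per library covers counting error only.

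The members and lists were chosen with earlier results of these data known, and the grouping by role was made after the data were seen. Values per library are given for genes with an unadjusted p under 0.05 or no overlap at a mean of at least 10 CPM, for the 4 highest genes per kb and for the 2 smallest differences. Values of further genes, Pgam1, Tpi1, Slc2a3 and Aldoc among them, were added after they were seen. Other genes are given by counts and ranges. The replicate numbers did not pair the libraries: deviations of same-numbered libraries correlated between -0.0649 and 0.0976.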

Additional observations from a re-analysis of the deposited data

Results flagged for a closer look

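In the 4 flox/+ libraries, 4 of the 37 genes tested had 1 library far from the rest by Dixon's test at its 95% critical value. On a log scale, the gap to the nearest library took up most of the range. Chance alone flags about 1 in 20 groups, a rate that does not hold where the other libraries share 0 counts. There any count is flagged, as for Adm. The share of all genes tested that the same rule flags is not given here, so 4 of 37 is no result about these genes. Car9 and Eno2, which were not tested, also had counts in only 1 flox/+ library. Pfkm, the muscle form of phosphofructokinase, stood at 8.83 CPM in flox/+ replicate 1, against 0 to 0.0662 CPM in the other flox/+ libraries. Egln1 stood at 27.3 CPM in flox/+ replicate 2, against 47.4 to 52.7 CPM. Adm stood at 4.40 CPM in flox/+ replicate 2 and at 0 in the others. Ero1l, an oxidase of protein folding induced by hypoxia, stood at 1.92 CPM in flox/+ replicate 3, against 21.6 to 31.6 CPM.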

How the results depend on the processing

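In flox/flox against flox/+, where edgeR called 0 genes, an adjusted p under 0.1 gave 2 genes, DESeq2 1026, no filter 196, the replicate block 1, and flox/flox without replicates 2 and 3 together 49, while leaving out 1 library gave 0 to 399, the highest without flox/flox replicate 1. DESeq2 called 4 of the 40 genes, and leaving out 1 library 0 to 1. The 6 genes with an unadjusted p under 0.05 became 1 with voom, 3 with a 10 CPM filter, a sex class term, only the 2 genotypes or the replicate block, and 3 to 12 without 1 library. Without flox/flox replicates 2 and 3 the median was -0.54, Pfkl -0.65 and Ankrd37 -0.61. The 1 lower glycolysis gene below 0 became 3 with DESeq2, voom, both other scalings, 2 with the 10 CPM filter, a term for genes detected or Xist-positive libraries only, 7 without flox/flox replicates 2 and 3, and 1 to 5 without 1 library.

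In flox/N211A against flox/+, DESeq2 called 16 genes and no filter 13, 1 of them among the 40. The 2 genes with an unadjusted p under 0.05 became 6 with DESeq2 or no filter, 5 with voom or the term for genes detected, 4 with DESeq2's size factors, 8 without flox/flox replicates 2 and 3, 7 with only the 2 genotypes, and 2 to 7 without 1 library. Among the genes given by library, signs turned for Egln1, Pfkl and Mif. Egln1 stood at -0.017 with no filter, -0.82 with the sex class term, -0.12 with Xist-positive libraries, -0.010 with 2 genotypes and -0.25 to 0.13 without 1 library. Pfkl stood at -0.016 with voom, -0.24 with the term for genes detected and -0.57 to 0.77 without 1 library. Mif stood at 0.063 with the replicate block, 0.0054 with Xist-positive libraries and -0.93 to 0.16 without 1 library.

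In flox/N211A against flox/flox, DESeq2 called 667 genes, no filter 96, Xist-positive libraries only 1, flox/flox without replicates 2 and 3 16, and leaving out 1 library 0 to 244. Of the 40, DESeq2 called 5, no filter 1 and leaving out 1 library 0 to 4. The 12 genes with an unadjusted p under 0.05 became 5 with voom, 2 without flox/flox replicates 2 and 3, 7 with only the 2 genotypes, and 6 to 15 without 1 library. The median was 0.19 with voom, 0.087 without flox/flox replicates 2 and 3, and -1.003 to -0.013 without 1 library. With 1 flox/flox library left, the spread comes from the other genotypes, so fewer calls there do not show dependence on those libraries. Without those replicates 4 lower glycolysis genes were below 0, with Aldoa at 0.31, Eno1 at 0.58 and Ldha at 0.046.

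The numbers do not pair the libraries, and the replicate block changed no other call. The causes of these shifts were not tested. The Xist-positive alternative and the counts of lower glycolysis genes and of unadjusted p were chosen after seeing the data.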
